A study of Mus musculus with 12 samples.

Results

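In mouse melanoma cells with intact or mutant KMT2D, profiled by ChIP-seq for histone marks, 3420 regions carried H3K27 acetylation (H3K27ac) in the mutant alone, away from H3K4me3 and without H3K4me1. A region was taken when an autosomal mutant H3K27ac peak overlapped, by 1 bp or more, no WT H3K27ac peak, no mutant H3K4me3 peak and no mutant H3K4me1 peak. The 3420 regions, called mutant-only sites below, were 15.5% (95% interval 15.01 to 15.97) of the 22083 autosomal mutant H3K27ac peaks. The regions were thus chosen by the peak calls of these 4 lists, so H3K27ac in the mutant alone, and the lack of mutant H3K4me1, are the rule and not results.

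The source of the cultures was melanoma of the ear in iBIP mice, whose background was mixed FVB and B6. Both genotypes carried the activated BRAF transgene TetO-BRAFV600E with its driver Rosa26-rtta, the alleles PTENL/L and INK/ARFL/L, and Tyr-CreERT2, and both received doxycycline and 4-OHT on the ears at 1 uM. Tyr-CreERT2 is a tamoxifen-activated Cre under a melanocyte promoter. WT cells came from iBIP mice of genotype KMT2D+/+, and mutant cells, which the labels also call KO, from KMT2DL/L mice. The labels do not say how many tumours, animals or clones stand behind a culture, nor their age. Each genotype had 1 library for each of 5 marks and 1 input, and the 10 deposited peak lists were used. With 1 library per genotype and mark there is no replicate check, no test between genotypes was made, and read depth is unknown. Intervals are exact (Clopper-Pearson) 95% binomial intervals unless another kind is named. These reflect counting error alone, and peaks that lie close together are not independent of each other. A missing peak means that none passed the threshold of that list, not that the mark was absent. Melanocyte markers and the loss of KMT2D itself were not checked here, since peaks were not assigned to genes.

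KMT2D (MLL4) is the catalytic subunit of a COMPASS-family complex that methylates H3K4 at enhancers, where H3K4me1 commonly accompanies or precedes acetylation by CBP and p300. H3K27ac without H3K4me3 is a usual sign of an active distal enhancer, and H3K4me1 without H3K27ac that of an enhancer called primed. H3K4me3 marks promoters, H3K79me2 the first part of transcribed gene bodies, and H3K27me3 regions under Polycomb repression.

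The mutant-only sites were short and mostly weak. Of the autosomal mutant H3K27ac peaks, 18.4% (4067) had no WT H3K27ac peak. Of these, 3734 had no mutant H3K4me3 and 3420 also no mutant H3K4me1. The MACS score, taken here as −log10 p multiplied by 10 and starting at 90, had a median of 137.0 over the mutant-only sites, with quartiles of 107.7 and 192.2. The highest score was 1328, and 766 sites (22.4%) scored at least 200. With thresholds of 200 in every MACS list and a −log10 q of 5 in the others, 1863 sites met the rule. These are not a subset of the 3420, since peaks that overlapped only a weaker peak of another list then also met it. The 3420 sites had a median width of 1134 bp (quartiles 932 and 1496), and together they covered 4.46 Mb. Distal mutant peaks that also lacked mutant H3K4me1 but overlapped a WT H3K27ac peak, called shared distal sites below (7109), had a median score of 256.3 and a median width of 1756 bp. These values are from the lists that set the rule and are given as a description.

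The same rule with the genotypes exchanged gave slightly more regions. In WT, 3617 H3K27ac peaks had no mutant H3K27ac, no WT H3K4me3 and no WT H3K4me1, which is 14.6% (14.2 to 15.1) of 24759 autosomal peaks. These WT-only counterparts had a median score of 135.9 and a median width of 987 bp. A peak of this kind, of low score and without a partner in the other genotype, was thus about as frequent in either list. The highest scores differed: 68 mutant-only sites and 17 counterparts scored at least 500. The best score among the counterparts was 738.2.

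Some mutant-only sites lay close to the limits of the rule. A WT H3K27ac peak was within 500 bp of 525 sites (15.4%), a mutant H3K4me3 peak within 500 bp of 69 and a mutant H3K4me1 peak within 500 bp of 66. The median score of the 525 was 133.8. Just outside the rule, 54 peaks were left out by an overlap of under 100 bp with WT H3K27ac, with a median score of 134.2. Overlaps of under 100 bp with mutant H3K4me3 or H3K4me1 left out 11 and 8 more. The median distance to the nearest mutant H3K4me3 peak was 29428 bp, and 110 sites had one within 1000 bp.

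WT chromatin at the mutant-only sites mostly held no called mark. Of the 3420 sites, 2406 (70.4%, 68.8 to 71.9) overlapped no WT peak of H3K4me1, H3K4me3, H3K79me2 or H3K27me3. Over all autosomal mutant H3K27ac peaks this share was 30.1%, and over the shared distal sites 53.9% (52.7 to 55.1). Both comparison sets hold peaks with WT H3K27ac, which the rule barred from the mutant-only sites. These gaps, and those for each WT mark below, are therefore given as a description. H3K4me1 was the WT mark found at most sites, closely followed by H3K79me2, while H3K4me3 and H3K27me3 were rare. In all, 2340 sites (68.4%, 66.8 to 70.0) had no peak in any other list of either genotype, against 27.6% of all autosomal mutant H3K27ac peaks and 52.7% (51.6 to 53.9) of the shared distal sites. The rule itself removed mutant H3K4me1 and H3K4me3 from the mutant-only sites, so part of this share is built in.

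**Figure D1:**
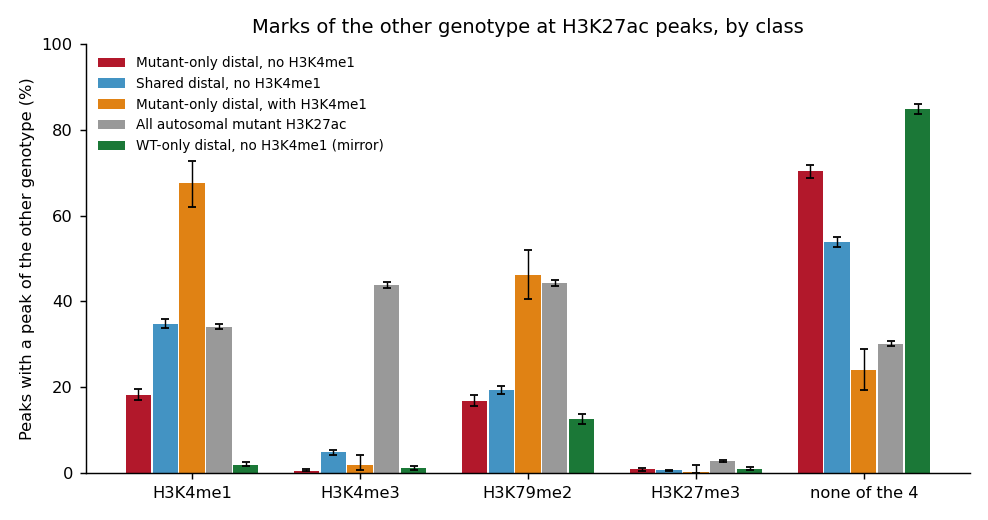
Share of H3K27ac peaks (vertical axis, %) that overlapped a peak of the other genotype, for 4 marks and for none of them, in 5 classes of peaks. Bars are shares and lines exact 95% intervals. For the 4 classes of mutant peaks the other genotype is WT, and for the WT-only counterparts it is the mutant. The mutant-only sites without H3K4me1 had WT H3K4me1 at 18.2% and none of the 4 WT marks at 70.4%.

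WT H3K4me1 overlapped 624 mutant-only sites, 18.2% (17.0 to 19.6), against 34.1% of all autosomal mutant H3K27ac peaks. The shared distal sites had it at 34.8% (33.7 to 35.9), a difference of -16.6 percentage points (Newcombe interval -18.3 to -14.9). All shared distal sites had WT H3K27ac, which the rule barred from the mutant-only sites and which H3K4me1 commonly accompanies. The gap is thus in part built in and is given as a description. Part of that gap goes with peak strength. Within 5 groups of like H3K27ac score the mean difference was -10.2 points (-12.1 to -8.28, normal approximation), and in each group the mutant-only sites had the lower share. In the weakest group WT H3K4me1 was at 14.3% (11.8 to 17.2) of the mutant-only and 23.7% (19.8 to 27.9) of the shared distal sites. In the strongest it was at 23.5% (20.4 to 26.9) and 39.0% (37.4 to 40.5), although the median score of that group was still 280.3 against 402.1.

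**Figure D2:**
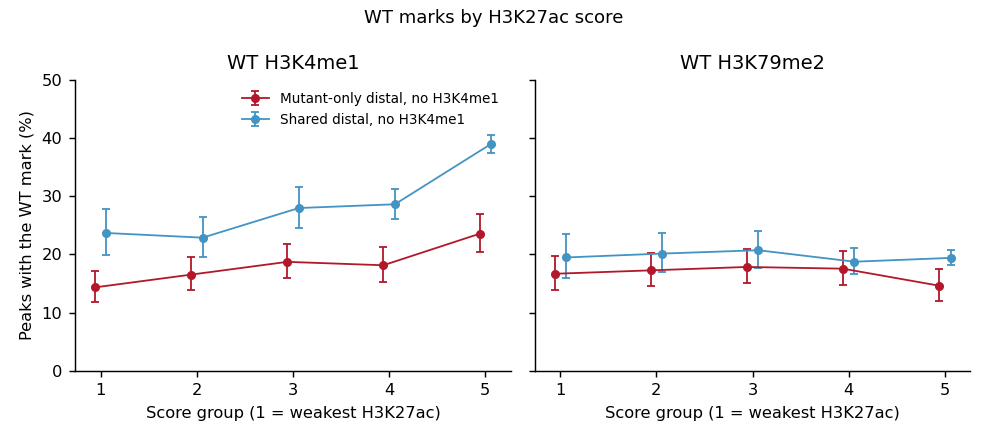
Share of peaks with WT H3K4me1 (left) or WT H3K79me2 (right) in 5 groups of H3K27ac score, each holding 684 mutant-only sites. Points are shares and lines exact 95% intervals. WT H3K4me1 was at 14.3% of the mutant-only sites in the weakest group and 23.5% in the strongest, below the shared distal sites throughout. The intervals for WT H3K79me2 overlap in the 4 weaker groups.

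The WT H3K4me1 peaks at these sites were ordinary ones for that list. The 650 peaks concerned had a median score of 156.9 and a median width of 1268 bp, against 159.2 and 1218 bp for the whole WT H3K4me1 list. They covered a median of 77.1% of the mutant-only site, and all of it in 120 cases. Since the rule required that no mutant H3K4me1 peak overlap a site, each of the 624 sites carried H3K4me1 in WT alone by construction. Sites with WT H3K4me1 were somewhat wider, at a median of 1302 bp against 1098 bp without it, and had a median score of 144.9 against 135.0.

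Seen from the WT list, 6209 autosomal H3K4me1 peaks had neither WT H3K27ac nor WT H3K4me3, the primed configuration described above. Any mutant H3K27ac peak was found at 1002 of them (16.1%, 15.2 to 17.1), and a mutant-only site at 585 (9.42%, 8.71 to 10.2). Thus 585 of the 650 WT H3K4me1 peaks at the mutant-only sites had no acetylation or H3K4me3 called over their own length in WT. Another 60 of the 650 overlapped a WT H3K27ac peak beside the site. Over all 15974 autosomal WT H3K4me1 peaks, the share with neither mark was 38.9%. The rule barred WT H3K27ac from the sites, so the higher share at them is in large part built in and is given as a description.

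The WT-only counterparts showed far less of the mirrored pattern. Mutant H3K4me1 overlapped 70 of the 3617, 1.94% (1.51 to 2.44). The same share over all WT H3K27ac peaks was not computed, so whether the low value is particular to the counterparts is not known. The 2 lists differ in length, with 15981 WT and 5358 mutant H3K4me1 peaks. With the WT list limited to its 5358 strongest peaks, 5.96% (5.19 to 6.81) of the mutant-only sites had WT H3K4me1. That share was 16.5% over all autosomal mutant H3K27ac peaks and 13.8% (13.0 to 14.6) over the shared distal sites. The 314 mutant-only distal peaks that did carry mutant H3K4me1 had WT H3K4me1 at 67.5% (62.0 to 72.7).

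WT H3K79me2, the mark of transcribed gene bodies, overlapped 574 mutant-only sites, 16.8% (15.5 to 18.1), against 44.2% of all autosomal mutant H3K27ac peaks. That background includes promoters, and the shared distal sites had 19.3% (18.4 to 20.3). That difference of -2.56 points (-4.09 to -0.985) was -0.154 (-1.63 to 1.36) when a window of 1000 bp at the peak centre replaced the whole peak. Within 5 groups of like score it was -2.91 (-4.68 to -1.13, normal approximation), so the score groups kept the difference and the fixed window did not. The overlapping H3K79me2 peaks were long, at a median of 5026 bp against 1440 bp for the list, and 321 sites lay wholly inside one.

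Where H3K79me2 was called at a mutant-only site, it was more often called in both genotypes than in 1. It was in both at 444 sites (13.0%, against 38.1% of all autosomal mutant H3K27ac peaks), in WT alone at 130 (3.80%, against 6.10%), in the mutant alone at 56 (1.64%, against 1.93%) and in neither at 2790. Of the 630 sites with the mark in either genotype, 70.5% (66.7 to 74.0) had it in both, against 82.6% (81.8 to 83.3) over all peaks and 74.4% (72.0 to 76.6) over the shared distal sites. Mutant H3K79me2 was thus at 500 sites, 14.6% (13.5 to 15.8), against 40.0% of all autosomal mutant H3K27ac peaks. The shared distal sites had the mark in WT alone at 4.08% (3.63 to 4.57) and in the mutant alone at 1.18% (0.944 to 1.46), where the intervals for the mutant-only sites were 3.19 to 4.50% and 1.24 to 2.12%. Sites inside WT H3K79me2 carried WT H3K4me1 more often, in 213 of 574 cases (37.1%, 33.1 to 41.2), than those outside it, with 411 of 2846 (14.4%, 13.2 to 15.8). The same held for the shared distal sites, at 55.3% (52.7 to 58.0) and 29.9% (28.7 to 31.1). It also held over all autosomal mutant H3K27ac peaks, at 42.5% and 27.4%.

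WT H3K27me3 was at 28 mutant-only sites, 0.819% (0.545 to 1.18), against 2.73% of all autosomal mutant H3K27ac peaks and 0.563% (0.402 to 0.765) of the shared distal sites. In the mutant 31 sites had H3K27me3 (0.906%, 0.617 to 1.28, against 3.01% of all peaks), and 10 of these had it in both genotypes, against 2.02% of all peaks. Sites with the Polycomb mark were thus few: 18 had it in WT alone (0.526%, against 0.702%) and 21 in the mutant alone (0.614%, against 0.983%). WT H3K4me3 was at 19 sites, 0.556% (0.335 to 0.866), against 43.8% of all autosomal mutant H3K27ac peaks, which include promoters. The shared distal sites had it at 4.77% (4.28 to 5.29). At 3 of the mutant-only sites WT had both H3K4me3 and H3K27me3, the pair of marks known as bivalent. That is 0.0877% (0.0181 to 0.256), against 2.38% of all autosomal mutant H3K27ac peaks and 0.127% (0.0579 to 0.240) of the shared distal sites. These small shares moved with the definition. Counting WT peaks within 1000 bp gave H3K4me3 at 3.19% and H3K27me3 at 1.20%, and the 766 sites scoring at least 200 had 0.914% and 1.44%.

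The mutant-only sites stood at widely varied distances from acetylation common to both genotypes. The median distance from edge to edge to the nearest shared H3K27ac peak, meaning a mutant peak that overlaps a WT one, was 5453 bp (95% interval of the median 4964 to 5953), with quartiles of 1100 and 23285 bp. Of the 3420 sites, 811 (23.7%) had a shared peak within 1000 bp, 1656 (48.4%) within 5000 bp and 2217 (64.8%) within 12.5 kb. At the other end, 248 sites were more than 100000 bp from any shared peak. To the nearest WT H3K27ac peak of any kind the median was 4325 bp, and to the nearest shared peak without mutant H3K4me3 it was 10264 bp. For scale, any autosomal mutant H3K27ac peak lay a median of 4216 bp from the next one, with 67.7% within 12.5 kb. That distance is to another set of peaks, but the mutant-only sites were not closer to shared peaks than this general spacing.

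**Figure D3:**
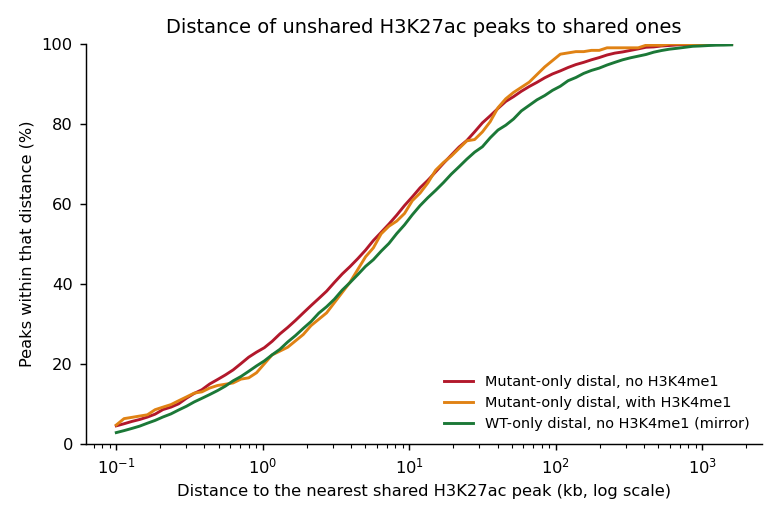
Share of peaks (vertical axis, %) whose nearest shared H3K27ac peak lies within the distance on the horizontal axis (kb, log scale), for the mutant-only sites without H3K4me1, the mutant-only distal peaks with H3K4me1 and the WT-only counterparts. The median of the mutant-only sites is 5453 bp, that of the counterparts 7199 bp.

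Of the other unshared peaks, those with mutant H3K4me1 lay at like distances and the WT-only counterparts somewhat farther away. The 314 mutant-only distal peaks with mutant H3K4me1 had a median of 5830 bp, and 63.7% of them were within 12.5 kb. The WT-only counterparts had a median of 7199 bp, with 60.2% within 12.5 kb. Of these counterparts 11.2% lay beyond 100000 bp, against 7.25% of the mutant-only sites. A shared peak lay within 12.5 kb on both sides of 836 mutant-only sites (24.4%, 23.0 to 25.9) and on 1 side of 1381. Around the counterparts, 20.7% (19.3 to 22.0) had shared peaks on both sides.

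The neighbour was usually a stronger peak and more often a distal one. The nearest shared peak had the higher score for 2938 sites (85.9%, 84.7 to 87.1), with a median score of 423.7. Over all shared peaks the median score was 352.7, and over the mutant-only sites 137.0, so a stronger neighbour is in large part built in. For the WT-only counterparts the nearest shared peak scored higher in 88.8% (87.7 to 89.8) of cases, so this was not particular to the mutant-only sites. The neighbour of a mutant-only site was distal without mutant H3K4me1 for 1848 sites (54.0%, 52.3 to 55.7), a class that makes up 39.5% of all 18016 shared peaks. It lay at mutant H3K4me3 for 1186 (34.7%, 33.1 to 36.3), against 51.5% of all shared peaks. The nearest shared peaks of the WT-only counterparts lay at WT H3K4me3 in 46.6% (45.0 to 48.3) of cases, against 50.8% of all.

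The sites' strength varied little with this distance, while the WT marks at them varied more. The median score was 137.7 for sites within 1000 bp of a shared peak and 137.6 for those beyond 100000 bp. WT H3K79me2 went from 20.8% (18.1 to 23.8) of the nearest sites to 1.61% (0.441 to 4.08) of the farthest. The counterparts showed a like fall in mutant H3K79me2, from 19.7% (16.9 to 22.7) within 1000 bp to 0% beyond 100000 bp. WT H3K4me1 was highest at 22.1% (18.7 to 25.8) between 5 and 12.5 kb, and 13.7% (9.68 to 18.6) beyond 100000 bp. The share with none of the 4 WT marks was 70.4% (67.1 to 73.5) within 1000 bp, 66.0% (62.7 to 69.2) between 1000 and 5000 bp and 84.3% (79.1 to 88.6) beyond 100000 bp. Among the counterparts beyond 100000 bp it was 98.8% (97.1 to 99.6), and no mutant H3K4me1 peak was found at any of those 404, for which the exact upper bound is 0.909%.

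Sites were grouped into clusters when members were joined across gaps of up to 12.5 kb. This put 1248 of the 3420 (36.5%, 34.9 to 38.1) in 518 clusters, of which 392 were pairs and 126 held 3 or more. The distance to the nearest other mutant-only site had a median of 27630 bp. The WT-only counterparts clustered slightly less, with 32.5% (30.9 to 34.0) in clusters, and the more numerous shared distal sites more, at 58.3% (57.2 to 59.5). The cluster share depended on how many sites were joined and on how peaks were split. Joining only the 766 sites scoring at least 200 to each other gave 15.7% (13.2 to 18.4). That set is smaller and so sparser, so this value does not show that stronger sites cluster less. After peaks within 1000 bp of each other had been merged, the share was 20.8% (19.2 to 22.5).

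Clustered and single sites had overlapping intervals for each of the 4 WT marks. WT H3K4me1 was at 16.7% (14.7 to 18.9) of the clustered and 19.1% (17.5 to 20.8) of the other sites, and WT H3K79me2 at 15.9% (13.9 to 18.0) and 17.3% (15.7 to 19.0). WT H3K27me3 was at 14 clustered (1.12%, 0.615 to 1.88) and 14 single sites (0.645%, 0.353 to 1.08), and WT H3K4me3 at 4 (0.321%, 0.0874 to 0.819) and 15 (0.691%, 0.387 to 1.14). The clustered sites' median score was 145.8 against 132.5. A shared H3K27ac peak stood inside the span of 132 of the 518 clusters (25.5%, 21.8 to 29.5). Among the 1203 sites more than 12.5 kb from a shared peak, 349 (29.0%, 26.5 to 31.7) still clustered with each other.

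Large acetylated domains were made by stitching the H3K27ac peaks of a genotype no more than 12.5 kb apart, and spanned at least 20000 bp. The mutant-only sites lay in large mutant domains about as often as mutant H3K27ac peaks in general: 1332 of 3420 (38.9%, 37.3 to 40.6) did, against 35.5% of all autosomal peaks and 46.3% (45.1 to 47.5) of the shared distal sites. The sites help to form these domains, so this share is not independent of them. Inside a large WT domain lay 603 (17.6%, 16.4 to 19.0), against 32.9% of all mutant H3K27ac peaks and 47.2% (46.1 to 48.4) of the shared distal sites. The rule removed every peak that overlaps WT H3K27ac, from which these domains are built, so the lower share is built in and is given as a description. For the WT-only counterparts the shares were 32.8% in large WT and 13.1% in large mutant domains, with the same limit. A mutant-only site was found in 675 of 1236 large autosomal mutant domains (54.6%, 51.8 to 57.4), and 3 or more in 153, while the sites made up 7.61% of the acetylated length in these domains. Another count is of domains without a large WT one: there were 235, and they held 420 of the sites (12.3%, 11.2 to 13.4). The share of all mutant H3K27ac peaks in those domains was not computed. Peaks without a WT partner help to form such domains, so this count is also partly built in.

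The 5 clusters with the most sites were of different kinds. On chromosome 13 from 37678748 to 37724407 (mm9, as all coordinates here), 9 sites with scores of 101.7 to 536.5 stood among 3 shared H3K27ac peaks, in a domain large in both genotypes. No site there overlapped another WT mark. On chromosome 8 from 11368174 to 11413095, 8 sites with scores of 147.6 to 368.2 stood in a stretch where WT had H3K4me1 over 13266 bp and H3K79me2 over 7531 bp. WT H3K4me1 overlapped 4 of these 8 and WT H3K79me2 2 of them. In this span WT H3K27ac covered 5054 bp and mutant H3K27ac 23264 bp.

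A further cluster on chromosome 8, from 119573514 to 119603146, stood alone. Its 8 sites (scores 94.6 to 409.4) covered 15598 bp, with the nearest WT H3K27ac peak 69974 bp away. The other mark there was H3K27me3, which covered 1479 bp in WT and, in mutant cells, 964 bp, and WT H3K27me3 overlapped 3 of the sites. On chromosome 16 from 48786300 to 48830856, 8 sites with a median score of 103.0 surrounded 1 shared peak, and no other mark was called in the span in either genotype. On chromosome 2 from 131700652 to 131731667, 6 sites with scores of 118.2 to 520.0 lay among 3 shared peaks in a domain large in both genotypes.

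**Figure D4:**
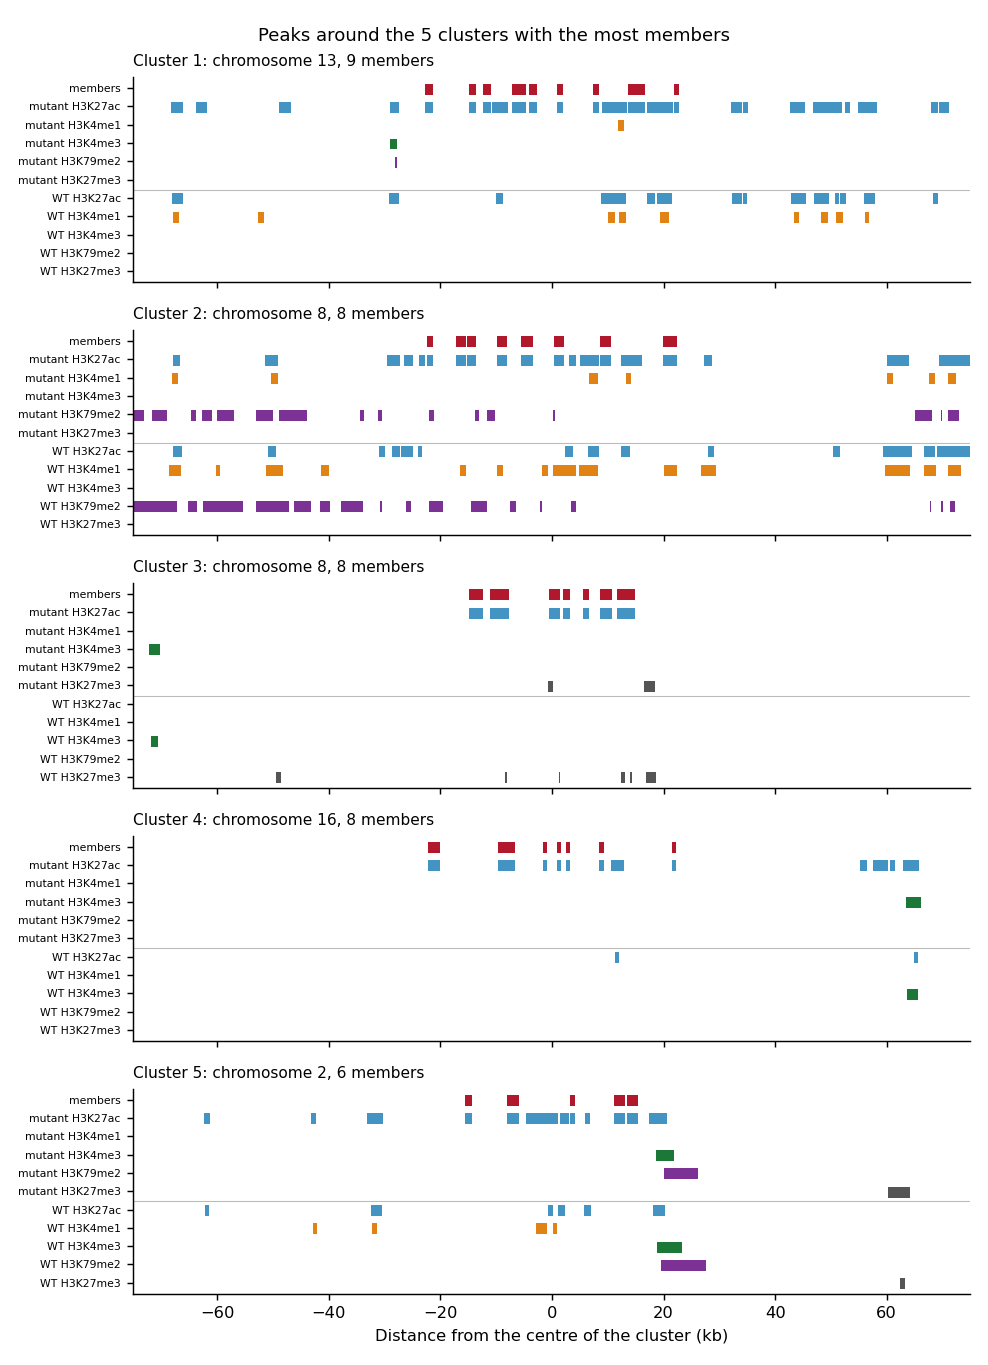
Peaks of all 10 lists around the 5 clusters with the most mutant-only sites, by distance from the centre of the cluster (kb). Red blocks are the sites (members), other blocks the peaks of each list, with mutant lists above the grey line and WT lists below it. Cluster 3 has no WT H3K27ac in view, and cluster 2 has WT H3K4me1 at 4 of its 8 sites.

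Among the 10 best-scoring sites, 6 had no WT peak of any mark. The best, on chromosome 11 from 119731238 to 119739904 (score 1328), was also the widest at 8667 bp, and WT H3K27ac began 5543 bp away. WT acetylation was 67880 bp from chr2:46225221-46229286 (1094), 67934 bp from chr19:11192781-11195861 (1083) and 72571 bp from chr13:93688050-93691312 (956.2). The site on chromosome 16 from 93188411 to 93194034 (1040) lay 37340 bp from it, and that on chromosome 12 from 26062348 to 26067670 (905.5) 4737 bp. Strong mutant-only acetylation thus occurred both beside and far from WT acetylation.

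The other 4 of these 10 carried a WT mark. WT H3K4me1 covered 1900 of 4823 bp on chromosome 5 from 64731369 to 64736191 (score 1124) and 2508 of 4240 bp on chromosome 15 from 81129722 to 81133961 (1060). WT H3K27me3 covered 645 bp of the site on chromosome 2 from 28255074 to 28259749 (966.3). WT H3K79me2 covered 1651 bp of that on chromosome 2 from 4487513 to 4492675 (900.1). For 6 of the 10 another mutant-only site lay 395 to 9672 bp away.

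The next-best sites with WT H3K4me1 were chr19:10095454-10100327 (score 771.4), chr8:122542306-122547573 (763.7) and chr16:52093304-52096029 (740.1). On chromosome 16, WT H3K4me1 covered 2476 of 2726 bp, and the nearest WT H3K27ac peak was 60710 bp away. That site had H3K4me1 alone in WT and H3K27ac alone in the mutant over nearly all its length. The site on chromosome 8, by contrast, had WT H3K27ac 2659 bp away.

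The 28 sites over WT H3K27me3 had a median score of 154.8, against 137.0 for the rest, and lay a median of 22398 bp from a shared peak, against 5392 bp. After that on chromosome 2, the best were on chromosome 3 from 89377446 to 89379858 (score 476.9, overlap 93 bp), on chromosome 9 a pair 289 bp apart, from 48546230 to 48554338 (421.2) and from 48542660 to 48545940 (408.0), and on chromosome 9 from 63931797 to 63933660 (348.6). The pair stood 237826 and 238107 bp from WT H3K27ac. Its larger site had both WT H3K4me3 over 1427 bp and WT H3K27me3 over 1257 bp, and neither genotype's H3K79me2. The last of these sites had WT H3K4me3 over 1171 bp and WT H3K27me3 over 1608 bp. Mutant H3K27me3 was called at none of these 5 sites.

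Sites over WT H3K79me2 next in score lay on chromosome 13 from 41539844 to 41543825 (691.7) and chromosome 3 from 104821188 to 104824341 (676.2). Both also had WT H3K4me1, over 1461 and 721 bp, and mutant H3K79me2, over 1708 and 356 bp. The third-best site with WT H3K4me3, on chromosome 14 from 70751740 to 70753698 (299.4), overlapped it by 29 bp and had mutant H3K4me3 7 bp away, so it sat at the edge of a promoter mark. Further wide sites were on chromosome 4 from 150078679 to 150084745 (6067 bp, score 615.7) and from 150151778 to 150157116 (5339 bp, score 177.5).

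The sites farthest from a shared peak were weak, with 1 exception. These were chr1:175981599-175982484 (score 104.0), chr5:40847640-40848536 (126.8), chr7:64387173-64387987 (95.7) and chr3:56073982-56074834 (108.5), which lay 981818 to 1418142 bp from one. The exception, on chromosome 1 from 177570211 to 177572442 (321.4), had WT H3K4me1 over 1964 of its 2232 bp, and a WT H3K27ac peak 14250 bp away. WT H3K27ac of any kind was 1080551 bp from the site on chromosome 7 and 9234 bp from that on chromosome 1 with the score of 104.0.

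The mutant-only sites were spread over all 19 autosomes. Their share of the mutant H3K27ac peaks was lowest on chromosome 11, at 12.6% (11.0 to 14.2, 218 of 1734), and highest on chromosome 12, at 19.8% (17.2 to 22.5, 183 of 926). The WT-only counterparts ranged from 11.2% on chromosome 8 to 17.5% on chromosome 1. On chromosomes 8, 12, 15 and 17 the mutant-only share was above the counterpart share by over 3 points, with 15.6 against 11.2%, 19.8 against 12.8%, 16.9 against 12.8% and 16.1 against 12.8%. These 4 were picked after their values were seen, and copy number was not measured here. WT H3K4me1 was at 11.5% (7.25 to 17.0) of the sites on chromosome 12 and at 29.3% (20.3 to 39.8) of those on chromosome 18.

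**Figure D5:**
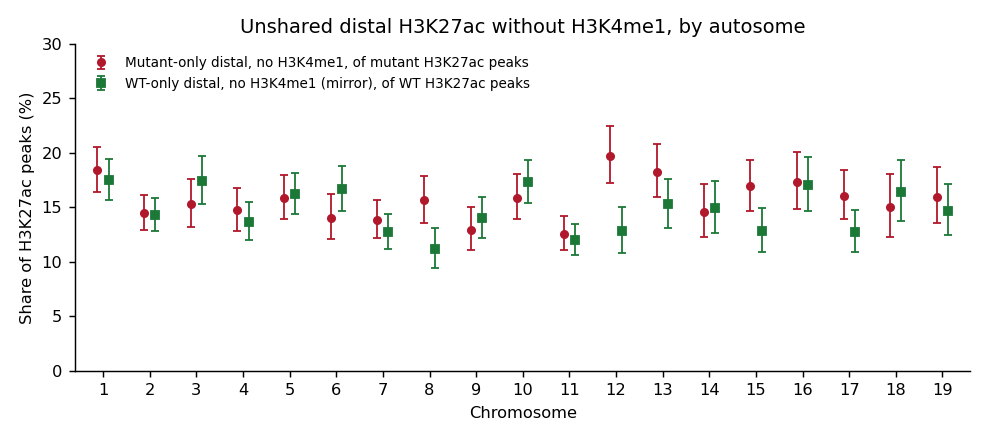
Mutant-only sites as a share of mutant H3K27ac peaks (red) and WT-only counterparts as a share of WT H3K27ac peaks (green), by autosome, with exact 95% intervals. The mutant-only share runs from 12.6% on chromosome 11 to 19.8% on chromosome 12, and the intervals of the 2 classes are apart on chromosomes 8 and 12.

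On a grid of 1 Mb windows the sites were unevenly placed, and so were the counterparts. The sites fell in 1085 of the 1787 windows with a mutant H3K27ac peak, and 233 windows with 5 or more sites held 1713 (50.1%) of them. The share of all mutant H3K27ac peaks in those 233 windows was not computed. Whether the sites were more uneven than mutant H3K27ac peaks in general is therefore not known. The fullest was chromosome 17 from 84000001 to 85000000, where 25 of 56 mutant H3K27ac peaks were mutant-only sites, against 4 counterparts among 49 WT peaks. Next were chr12:81000001-82000000 (21 of 60), chr13:37000001-38000000 (21 of 62), chr15:66000001-67000000 (18 of 44) and chr6:99000001-100000000 (16 of 38, as in the window ranked after it). The WT lists held 6, 1, 1 and 3 counterparts there. Over the whole grid the 3617 counterparts fell in 1243 windows, with 232 windows of 5 or more and up to 20 in a window.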

How the data were processed

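ChIP-seq peaks of 5 histone marks in WT and KMT2D-mutant melanoma cells were used as 10 lists, each called in 1 library. The 2 inputs were not analysed here. The submitters' processing notes name Bowtie, MACS, MACS2 and deepTools and the build mm9, and give no version or role for a tool. For H3K4me1, H3K27ac and H3K4me3 the lists give a deposited MACS score per peak, whose lowest value of 90.0 reads as a p of 1e-09. The lists of H3K79me2 and H3K27me3 are deposited MACS2 broad peaks with a score, a fold enrichment (a ratio), and −log10 p and q values. The −log10 q was used for stricter thresholds and the fold was not used. Scores are the authors' values, were used to describe, rank or group peaks, and are not adjusted for depth, which is unknown. Groups come from the sample titles.

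Overlaps were of 1 bp or more, distances ran from edge to edge, and coordinates are counted from 1. The overlap, distance and merging code was tested on simulated lists against direct enumeration, with 0 wrong results over 2400 intervals. The 5 score groups held equal numbers of mutant-only sites, and shared distal sites scoring above the best mutant-only site were left out of them. Differences between 2 shares carry Newcombe intervals, and the mean over score groups a normal one.

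Regions were named by a rule. It took the 10 best scores, the 5 clusters with the most sites, and the best sites with each WT mark (5 for H3K4me1 and H3K27me3, 3 for H3K79me2 and H3K4me3). It added the 5 widest, the 5 farthest from a shared peak and the 5 fullest 1 Mb windows. The members, classes and rules were chosen with earlier results of these data known. Peaks were not assigned to genes and no sequence was read, since the reference tables at hand are on another mouse build (GRCm38). The planned sequence, gene position and marker checks were therefore not run. Alternatives were stricter thresholds, merged peaks, other overlap and distance definitions and other gaps. The WT H3K4me1 list at the length of the mutant one, 20 score groups, and clusters outside large domains were added once results had been seen, that is, chosen after seeing the data. Computation used Python 3.11.15, numpy 2.4.6, pandas 2.3.3, scipy 1.17.1, statsmodels 0.14.6 and matplotlib 3.10.9.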

Additional observations from a re-analysis of the deposited data

How the results depend on the processing

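Of 63 recomputed values, 33 stayed within 1.5 times (counts) or within the 95% interval of the reported value, 30 moved out of it and 0 reversed in sign. The number of mutant-only sites was 2355 to 4162 under all alternatives but the threshold of at least 200 in every MACS list (−log10 q of at least 5), which gave 1863 and a share of 13.2% of the mutant H3K27ac peaks. Under that threshold the share was 16.7% on chromosome 12 and 10.1% on chromosome 11, and chromosome 13 had the highest, 17.8%.

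Counting a WT peak within 1000 bp gave WT H3K4me1 at 26.3% of the sites, H3K4me3 at 3.19%, H3K79me2 at 20.5%, H3K27me3 at 1.20%, any of the 4 at 38.9% and none at 61.1%. Among the 766 sites scoring at least 200 these were 23.0, 0.914, 14.9, 1.44, 32.2 and 67.8%. Cutting the WT H3K4me1 list to the length of the mutant one, an alternative chosen after seeing the data, gave 5.96%. For the difference from the shared distal sites, 5 score groups gave -10.2 points for WT H3K4me1 and -3.55 for H3K4me3, 20 groups, also chosen after seeing the data, -9.16 and -3.47, and the window of 1000 bp -13.5 for H3K4me1 and -0.154 for H3K79me2.

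The median distance was 7923 bp from centre to centre, 10264 bp to shared peaks without H3K4me3 and 4325 bp to any WT H3K27ac peak. The share in clusters was 25.3% with a gap of 5000 bp, 47.8% with 25000 bp and 20.8% with merged peaks. Joining only sites scoring at least 200 gave 15.7%. Joining only sites outside large mutant domains, chosen after seeing the data, gave 26.6%. No paired analysis was possible because each group has 1 library, and no library could be left out. Peak lists hold no depth, so weaker enrichment cannot be told from fewer reads.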
